A study of Mus musculus with 2 samples.

Results

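The genes described here are 7 genes of purine metabolism grouped as genes of the tip of the intestinal villus: Enpp3, Nt5e, Ada, Slc28a2, Slc28a1, Pnp and Xdh. They were picked by symbol from the 54658 gene symbols of the deposited count matrices, and all 7 were found. The data are spatial transcriptomes of mouse intestine, with 1 section from an animal labelled WT and 1 from an animal labelled DPF2 KO, both exposed to 10 Gy of X-rays, and called below the WT-labelled and the KO-labelled section. Each section was captured on an array of barcoded positions, and the files give counts per gene and barcode. DPF2 is a subunit of the BAF chromatin remodelling complex, and the series asks about its role in radiation injury of the gut. The time after irradiation, the stretch of intestine, the deleted piece of Dpf2 and the cells in which it was deleted are not stated in these sources. With 1 section per genotype and no unirradiated section there are no replicates. No test between genotypes was possible, every interval below covers counting error only, and a difference between the sections cannot be assigned to genotype.

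Enterocytes leave the crypt, climb the villus and are shed at its tip, and their gene expression changes along the way. Cells near the tip are known for a chain of enzymes that breaks down extracellular nucleotides and takes up the products. ENPP3 is an ectoenzyme that cleaves nucleoside triphosphates, NT5E (CD73) turns AMP into adenosine, and ADA turns adenosine into inosine. SLC28A2 (CNT2) and SLC28A1 (CNT1) carry nucleosides into the cell with sodium, the former preferring purine and the latter pyrimidine nucleosides. PNP then splits inosine and guanosine into base and ribose phosphate, and XDH oxidises hypoxanthine and xanthine to urate.

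The promoter windows of the 4 genes that shared a tip-rich distribution (Enpp3, Nt5e, Ada and Slc28a2) and of Slc28a1, which did not, are shown so that the sequences can be set beside the maps. Each window runs from 250 bases before to 50 bases after a transcript start in RefSeq's annotation of GRCm38.p6 and is written 5′ to 3′ on the gene's strand. The Slc28a1 window begins at 81114549, inside a gene span that starts at 81113269. It therefore surrounds an inner transcript start and compares less directly with the others. The Slc28a2 window also takes a start inside its gene span, by fewer bases. Capitals mark matches, on either strand, to any of 8 short motifs. Those named for factors of the gut epithelium are CAAAGTNCA for the nuclear receptor HNF4, the letters TTTATNG for the homeobox factor CDX, the letters GTTAAT for HNF1, the letters AGATAA for the zinc finger factor GATA, and the letters CACCC for the Krüppel-like factors (KLF). The general promoter elements searched are the TATA box with the letters TATAAA, the GC box with the letters GGGCGG, and the letters CCAAT.
Enpp3, chr10:24836146-24836445, minus strand: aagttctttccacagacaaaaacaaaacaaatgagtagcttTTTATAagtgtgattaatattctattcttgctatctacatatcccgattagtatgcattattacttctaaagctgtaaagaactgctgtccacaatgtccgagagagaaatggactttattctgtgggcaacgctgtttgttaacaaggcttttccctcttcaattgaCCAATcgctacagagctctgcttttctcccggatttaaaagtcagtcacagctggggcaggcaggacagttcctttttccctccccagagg
Nt5e, chr9:88327359-88327658, plus strand: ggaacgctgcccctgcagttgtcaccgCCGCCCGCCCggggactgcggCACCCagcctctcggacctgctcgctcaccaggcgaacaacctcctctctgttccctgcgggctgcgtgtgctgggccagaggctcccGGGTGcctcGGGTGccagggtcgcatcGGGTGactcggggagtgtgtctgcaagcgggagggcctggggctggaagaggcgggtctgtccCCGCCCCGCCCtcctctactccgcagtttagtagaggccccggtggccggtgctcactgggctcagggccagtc
Ada, chr2:163750190-163750489, minus strand: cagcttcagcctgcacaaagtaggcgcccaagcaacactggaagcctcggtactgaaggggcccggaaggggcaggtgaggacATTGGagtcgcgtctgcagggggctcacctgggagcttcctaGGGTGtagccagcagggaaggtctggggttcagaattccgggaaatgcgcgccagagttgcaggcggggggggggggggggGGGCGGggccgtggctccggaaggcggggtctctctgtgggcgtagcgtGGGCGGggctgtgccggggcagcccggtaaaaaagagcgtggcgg
Slc28a2, chr2:122426185-122426484, plus strand: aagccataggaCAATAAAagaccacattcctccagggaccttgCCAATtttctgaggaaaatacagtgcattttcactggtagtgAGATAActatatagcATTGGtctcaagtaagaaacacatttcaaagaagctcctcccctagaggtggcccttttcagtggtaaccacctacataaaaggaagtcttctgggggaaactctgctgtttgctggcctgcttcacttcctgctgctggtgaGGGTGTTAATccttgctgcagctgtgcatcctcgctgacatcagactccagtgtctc
Slc28a1, chr7:81114549-81114848, plus strand: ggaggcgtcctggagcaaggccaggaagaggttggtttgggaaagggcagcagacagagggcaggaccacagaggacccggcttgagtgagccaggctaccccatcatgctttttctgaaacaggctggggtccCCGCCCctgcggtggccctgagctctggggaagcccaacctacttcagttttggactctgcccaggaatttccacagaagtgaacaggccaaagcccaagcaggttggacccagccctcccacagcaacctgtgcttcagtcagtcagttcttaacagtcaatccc

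Of the 7 genes, 6 had a window in the RefSeq table, and Xdh is named only. No single motif of the 8 occurred in all 4 tip-rich genes. CACCC occurred in Ada, Nt5e and Slc28a2, and in 56.7% of the 27025 mouse promoter windows of the same length. CCAAT occurred in Ada, Enpp3, Slc28a2 and Pnp, against 37.9% of all windows. Slc28a2 alone held TTTATNG (11.3% of all windows), AGATAA (11.4%) and GTTAAT (7.20%), the last of these overlapping its CACCC match by 1 base. TATAAA was found in Enpp3 only, 209 bases before the start (14.2% of all windows). GGGCGG occurred in Ada, Nt5e, Pnp and Slc28a1 (35.9% of all windows), with matches in Nt5e that overlap each other or adjoin, and CAAAGTNCA in none of the 6 (1.41%). The windows also differed in base composition, from 40.7% G and C in Enpp3 and 46.7% in Slc28a2 to 68.0% in Ada and 71.0% in Nt5e. A match is a run of letters and not evidence of binding.

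The WT-labelled section held 50970 barcodes and 39824941 counts, and the KO-labelled section 88056 barcodes and 89754886 counts. Levels are given as CPM, the number of counts per 1000000 counts in the same section, and differences as the log2 ratio of the KO-labelled section over the other. Dpf2 did not bear out the label, at 940 counts (23.6 CPM) in the WT-labelled section and 2333 counts (26.0 CPM) in the KO-labelled section. Enterocyte marker levels differed widely between the sections. A list of 20 enterocyte markers summed to 569 CPM in the WT-labelled section (298 to 1212 over 4 parts of the section with about equal numbers of barcodes) and to 33927 CPM in the other (29757 to 37856). All 19 of its measured members were higher in the KO-labelled section, while all 10 Paneth cell markers were lower, from 94687 to 5832 CPM in sum. In bulk sums like these, fewer cells of a type and less RNA per cell cannot be told apart. The sections shared 45557 barcode names, which are positions of the array design, and barcode totals under shared names correlated at r = 0.0768 (Pearson, over those names, a description).

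The first step of the chain, Enpp3 (chr10:24773814-24836195), was low in the WT-labelled section, with 171 counts (4.29 CPM, interval 3.67 to 4.99). The KO-labelled section held 59156 counts (659 CPM, 654 to 664), 153-fold more, a log2 ratio of 7.26 (7.05 to 7.49). Its 4 parts ran from 535 to 763 CPM. In the WT-labelled section parts 1 to 3 held 1.94, 2.74 and 1.68 CPM and part 4 held 10.3 CPM. Without part 4 the log2 ratio was 8.24. Nt5e (chr9:88327609-88372089) had far fewer counts in both sections, 223 (5.60 CPM) and 2391 (26.6 CPM), a log2 ratio of 2.25 (2.05 to 2.45). Its parts held 3.68 to 7.60 CPM and 19.4 to 30.6 CPM, and the ranges did not overlap.

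Ada (chr2:163726571-163750239) had 1639 counts in the WT-labelled section and 123790 in the other. That is 41.2 against 1379 CPM, a 33.5-fold difference and a log2 ratio of 5.07 (4.996 to 5.14). The parts of the KO-labelled section held 1091, 1047, 1613 and 1693 CPM. Those of the WT-labelled section held 23.6, 33.6, 20.8 and 82.2 CPM, with part 4 again the high one, and the log2 ratio without it was 5.69.

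The 2 nucleoside carriers differed from each other. Slc28a2 (chr2:122426357-122461152) had 723 counts (18.2 CPM) in the WT-labelled section and 28568 (318 CPM) in the KO-labelled section, a log2 ratio of 4.13 (4.03 to 4.24). Its wild-type parts were uneven, at 8.08, 9.54, 7.20 and 45.8 CPM, and the log2 ratio without part 4 was 5.25. Slc28a1 (chr7:81113269-81170416) was already at 122 CPM (4843 counts) in the WT-labelled section and at 324 CPM (29038 counts) in the other, a log2 ratio of 1.41 (1.37 to 1.46). Its parts were even in both sections, 115 to 135 and 302 to 369 CPM. The neighbouring copy of Slc28a2, listed as Gm14085 and named Slc28a2b in RefSeq, went the other way, with 235 counts (5.90 CPM) against 358 (3.99 CPM) and a log2 ratio of -0.57 (-0.81 to -0.32). Reads that both copies could hold may have been split by the authors' counting, of which the sources say nothing. Slc28a3, the third concentrative carrier, had 167 and 2225 counts and a log2 ratio of 2.56.

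Xdh and Pnp, the last enzymes of the chain, differed by less than Enpp3, Ada and Slc28a2. Xdh (chr17:73883895-73950397) had 1998 counts (50.2 CPM) and 17783 counts (198 CPM), a log2 ratio of 1.98 (1.91 to 2.05), with parts at 41.9 to 58.7 and 152 to 249 CPM. Pnp (chr14:50944303-50953412) had 2687 counts (67.5 CPM) and 14104 counts (157 CPM), a log2 ratio of 1.22 (1.16 to 1.28), with parts at 65.3 to 70.9 and 146 to 172 CPM. Pnp2, a near copy that lies next to Pnp, had 988 and 15761 counts and a log2 ratio of 2.82 (2.73 to 2.92), and counts of this pair may likewise be split between them. Enpp1 and Enpp2, relatives of Enpp3, had log2 ratios of -0.23 and 0.02.

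**Figure D1:**
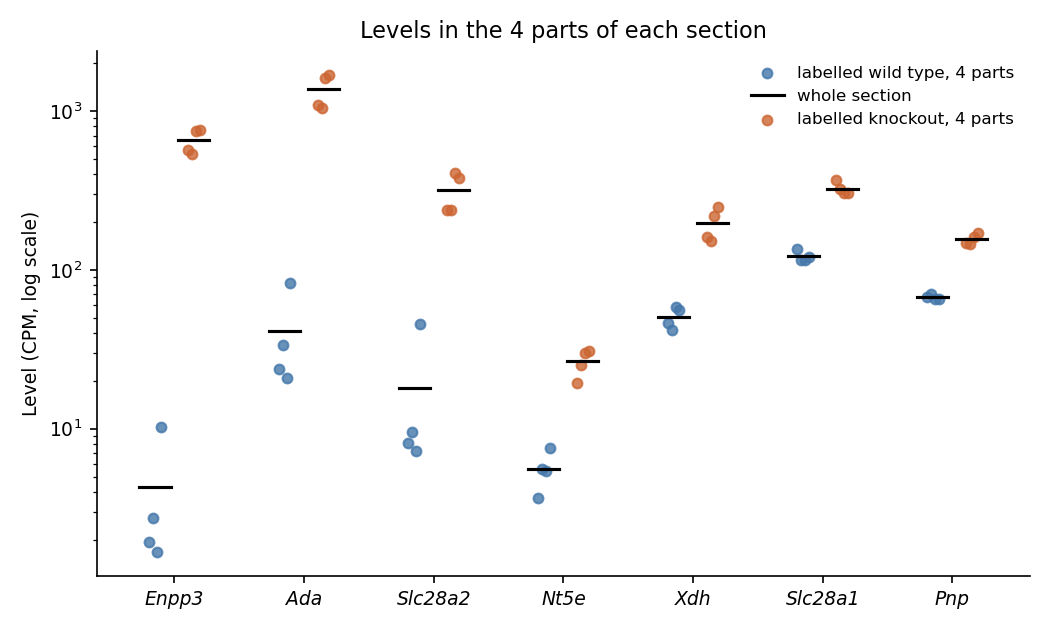
Level of each gene in CPM (log scale) in the 4 parts of the WT-labelled section (blue) and of the KO-labelled section (orange), with black lines for the whole section. The orange points lie above the blue points for all 7 genes, and for Enpp3, Ada and Slc28a2 part 4 of the WT-labelled section stands above the other 3 parts.

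All 7 genes were at least 2-fold higher in the KO-labelled section, against 15.7% of the 14516 genes whose counts in both sections together reached 200 (19.7% were at least 2-fold lower). Enpp3, Ada and Slc28a2 were at least 8-fold higher, against 3.42% of genes. For all 7, each part of the KO-labelled section lay above each part of the other, against 31.6% of genes. The median log2 ratio of the 7 was 2.25 and that of all these genes -0.18. Their summed level was 308 CPM against 3062 CPM, a log2 ratio of 3.31 (3.29 to 3.34). The enterocyte markers moved with this difference and by more. Per 1000 counts of the enterocyte list, Ada had 72.3 counts in the WT-labelled section and 40.7 in the other. On that scale Enpp3 alone was higher in the KO-labelled section (7.55 against 19.4, a log2 ratio of 1.36), and the other 6 were lower, from -0.83 for Ada and -1.77 for Slc28a2 to -4.68 for Pnp. How much of the difference in CPM follows the enterocyte content was not tested.

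Squares measuring 10 position units a side, each with 1000 or more counts, were used to describe where the genes lie (4917 squares in the WT-labelled section and 8285 in the other, with 203 and 61 left out for too few counts). After thinning every square to 1000 counts, Ada had a count in 3.63% of squares of the WT-labelled section and in 59.1% of the other, and Enpp3 in 0.397% and 41.6%. The values without thinning were 19.99% and 98.6% for Ada and 2.83% and 92.7% for Enpp3. Slc28a2 was found in 1.67% and 21.5% of thinned squares, Slc28a1 in 12.6% and 28.2%, Xdh in 4.99% and 16.6%, Pnp in 6.75% and 14.2%, and Nt5e in 0.583% and 2.52%.

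**Figure D2:**
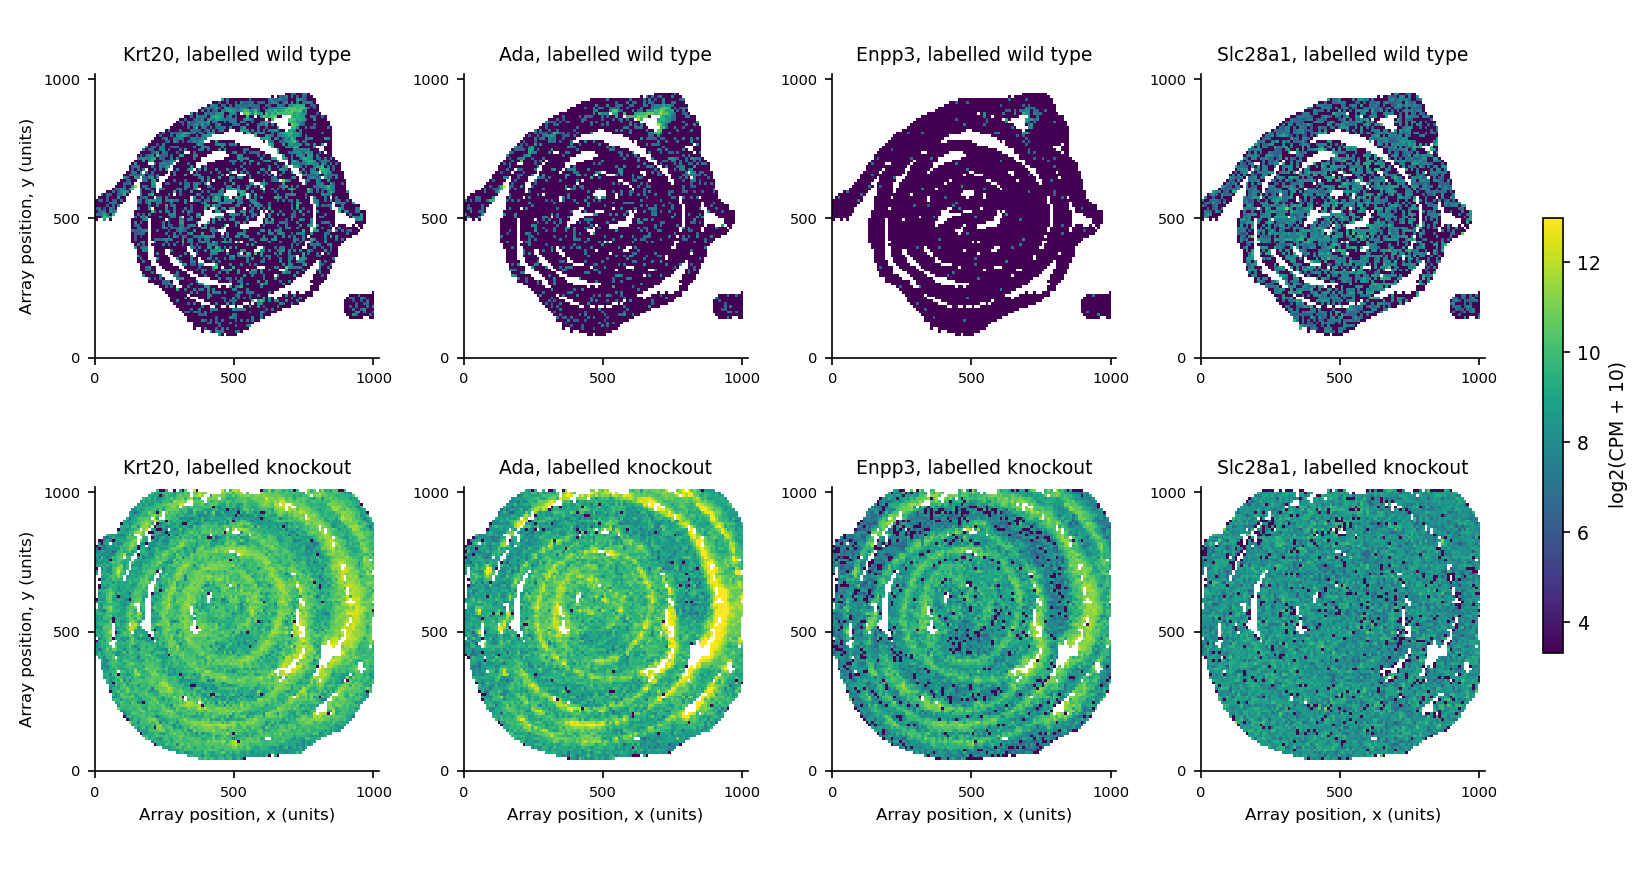
Maps of Krt20, Ada, Enpp3 and Slc28a1 over both arrays (position units on both axes), each pixel a square of side 10 coloured by log2(CPM + 10). Ada and Enpp3 follow the bright Krt20 bands of the KO-labelled section. In the WT-labelled section they are highest in a patch at the upper right, and many counts of Ada lie elsewhere. Slc28a1 is spread evenly.

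Whether the genes lie toward the tip was read from landmark genes that hold no member. Squares with an enterocyte share at or above the median of their section were ordered by tip landmarks (Krt20, Apoa4, Klf4, Creb3l3 and Egfr) over tip plus bottom landmarks (Reg1, Reg3a, Reg3b, Reg3g, Lypd8, Gsdmc2, Gsdmc4, Nlrp6 and Il18) and cut into 5 groups of equal number. Landmark counts were summed, so abundant genes weigh most. Over the KO-labelled section Apoa4 made up 6033 of the 7833 CPM of the tip landmarks. Reg3b made up 10628 of the 14205 CPM of the bottom landmarks. In the KO-labelled section, Slc28a2 stood at 121, 180, 273, 432 and 1331 CPM along the 5 groups, a tip over bottom log2 ratio of 3.46 (3.37 to 3.54). Ada went from 640 to 5075 CPM (2.99, 2.95 to 3.03), Nt5e from 10.4 to 79.0 CPM (2.92, 2.62 to 3.24) and Enpp3 from 374 to 1848 CPM (2.30, 2.25 to 2.36). These 4 of the 7 genes were at least 2-fold higher in the tip-rich group, against 2.44% of 13152 genes. Xdh was higher by less, 192 to 376 CPM (0.97, 0.88 to 1.05), as was Pnp, 151 to 245 CPM (0.70, 0.60 to 0.79). Slc28a1 went against the name of the set, from 346 CPM in the bottom-rich group to 258 CPM in the tip-rich one (-0.42, -0.50 to -0.35). Each sign was the same in 4 of 4 parts of the section. The median log2 ratio over all genes was -0.26, and the enterocyte list took 4.16% of counts in the bottom-rich and 4.90% in the tip-rich group.

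**Figure D3:**
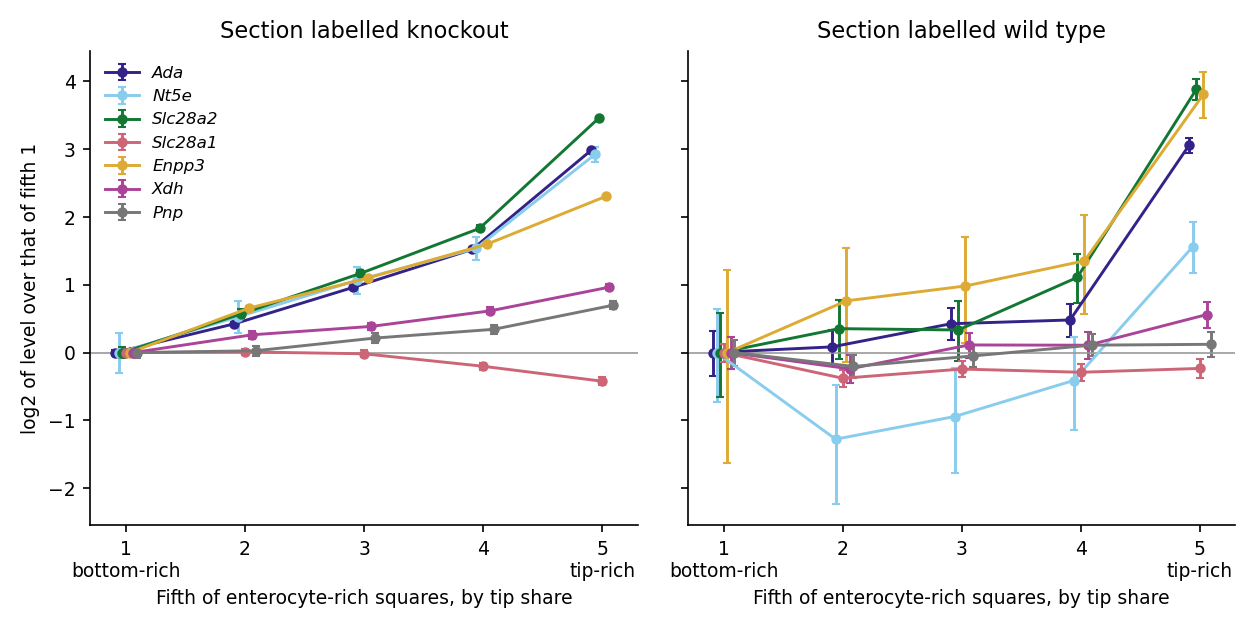
Level of each gene in 5 groups of squares with an enterocyte share at or above their section's median (called enterocyte-rich on the axis). Groups run from bottom-rich to tip-rich, and levels are log2 over the first group, in the KO-labelled section (left) and the WT-labelled section (right). Bars are exact Poisson intervals of each group's level. In the left panel Slc28a2, Ada, Nt5e and Enpp3 climb to 3.46, 2.99, 2.92 and 2.30 while Slc28a1 ends at -0.42.

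The same order of squares in the WT-labelled section gave tip over bottom log2 ratios of 3.88 for Slc28a2, 3.81 for Enpp3, 3.06 for Ada and 1.56 for Nt5e, with 0.56 for Xdh, 0.12 for Pnp and -0.23 for Slc28a1. These rest on fewer counts and largely on part 4, and the bottom-rich group is made of squares with no tip landmark count at all. Without part 4 they were 1.31 (0.46 to 2.22) for Slc28a2, 1.62 (-0.38 to 4.14) for Enpp3, 1.69 (1.24 to 2.16) for Ada and 0.84 (-0.25 to 2.001) for Nt5e. Ada ran from 25.3 CPM in the bottom-rich to 211 CPM in the tip-rich group, and was higher at the tip in 3 of 4 parts. The enterocyte share went from 0.0574% to 0.232% of counts along these groups, and per enterocyte count the ratio of Ada was 1.05 and that of Nt5e -0.45. The share over the whole section was 0.0569%, so the bottom-rich group was not rich in enterocyte counts.

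Krt20, a keratin of mature enterocytes near the tip, was itself higher in the KO-labelled section (94.5 against 1250 CPM, log2 ratio 3.73). Without thinning it was present in 38.9% of squares of the WT-labelled section and in 98.6% of the other. After thinning to 1000 counts these shares were 8.54% and 64.0%. Squares with Krt20 were also deeper than those without it. Their median counts were 8772 against 6767.5 in the WT-labelled section and 10290 against 2811 in the other. Squares with Krt20 in the WT-labelled section held 61.0 CPM of Ada and those without it 25.2 CPM, a log2 ratio of 1.27 (1.12 to 1.42). That ratio was above 0 in only 2 of the 4 parts, which ran from -0.30 to 1.999. Slc28a2 had 1.75 and was above 0 in all 4 parts (0.38 to 2.35). Enpp3 had 1.51, from -3.34 to 2.504 over the parts with 3 of 4 above 0, and Nt5e had 0.55, which turned to -0.031 with squares of side 20. Pnp (0.12), Xdh (-0.01) and Slc28a1 (-0.04) were nearly level. The enterocyte list moved with Krt20: per enterocyte count the ratios were 0.0037 for Ada, 0.48 for Slc28a2, 0.24 for Enpp3, -0.72 for Nt5e and -1.15 for Pnp, and its part in the CPM ratios was not tested. Because few squares of the KO-labelled section lacked Krt20, they were also cut into 5 groups of equal number by Krt20 level. From the lowest to the highest group Ada went from 553 to 3395 CPM, Slc28a2 from 96.1 to 892 and Enpp3 from 246 to 1414. Xdh went from 105 to 317 and Pnp from 118 to 221 CPM. Nt5e rose mainly in the last group, at 18.2, 17.0, 18.6, 21.3 and 55.9 CPM. These groups hold all squares, enterocyte-rich or not. The enterocyte list was also higher in Krt20-rich squares of this section than in the farthest ones (47769 against 29627 CPM). Its part in these rises was not tested. Slc28a1 went from 328 to 274 CPM.

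Levels were also read by distance from Krt20. In the tenth of squares richest in Krt20 of the KO-labelled section, Ada stood at 4822 CPM, and in squares 1, 2, 3 to 4, 5 to 7 and 8 or more squares away it stood at 1682, 972, 750, 609 and 473 CPM. Slc28a2 went from 1322 to 78.8 CPM and Enpp3 from 1726 to 262 CPM over the same steps, while Slc28a1 was at 250 CPM in the Krt20-rich squares and at 336 CPM in the farthest. The enterocyte list was at 47769 CPM in the Krt20-rich squares and at 29627 CPM in the farthest. The WT-labelled section showed 1 drop at the first step and little after it. Ada was at 189 CPM in Krt20-rich squares, at 32.2 CPM in their neighbours and at 25.8, 25.001 and 25.3 CPM over the next steps. Slc28a2 stood at 109 and 11.5 CPM, then at 8.68 and 9.03 CPM. The enterocyte list dropped with them, from 2537 to 535 CPM at the first step. Slc28a1 there went from 134 CPM in Krt20-rich squares to 93.1 and 99.1 CPM in the 2 farthest groups, the opposite direction to the KO-labelled section.

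**Figure D4:**
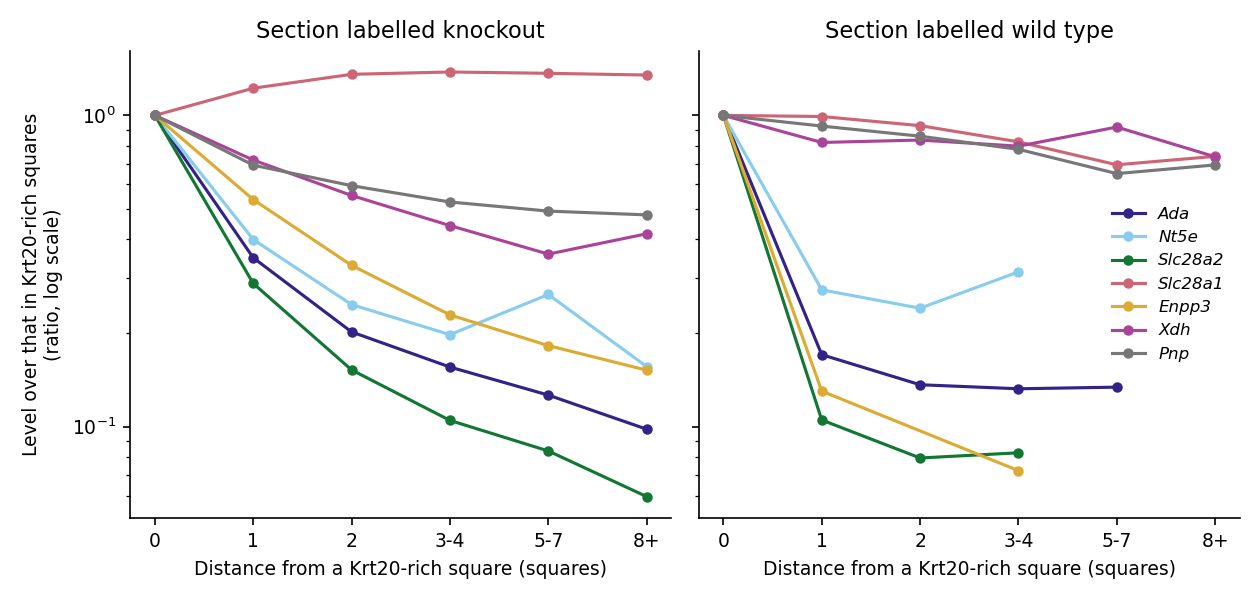
Level of each gene over its level in the tenth of squares richest in Krt20 (ratio, log scale) against distance from such a square, in squares, for the KO-labelled section (left) and the WT-labelled section (right). Points with under 20 counts are left out. Ada, Slc28a2 and Enpp3 fall at each step in the left panel and mainly at the first step in the right one, where Enpp3 keeps 3 points. Away from Krt20, Slc28a1 lies above 1 in the left panel and below 1 in the right.

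The tip-rich genes also shared squares. Co-occurrence is the share of squares with counts of both genes over the product of the shares with each. In the WT-labelled section, Slc28a2 and Enpp3 met in 48 squares, 3.995 times the product of their shares, Ada and Enpp3 in 72 squares (2.59 times), Nt5e and Enpp3 in 17 (2.98 times), Nt5e and Slc28a2 in 43 (2.46 times) and Ada and Slc28a2 in 163 (1.92 times). Ada and Nt5e met in 74 squares (1.83 times). Slc28a1 met Ada in 633 squares, 1.09 times the product. With Krt20 the ratio was 1.49 for Slc28a2 and 1.30 for Ada. Comparing squares of like depth only lowered the Slc28a2 and Enpp3 ratio to 3.44. The ratios of these tip-rich pairs depended on square size. In the order given they were 1.71, 1.42, 1.64, 1.62, 1.31 and 1.32 with side 20, and 8.29, 5.24, 2.16, 3.99, 4.30 and 2.83 with side 5. The 2.16 of Nt5e and Enpp3 rests on 4 squares. Part 4 of this section held the highest level of each tip-rich gene, and its part in the ratios was not tested. Nearly all squares of the KO-labelled section held Ada (98.6%) and Enpp3 (92.7%), so ratios with these genes lie near 1 there and say little. Slc28a2 was in 73.0% and Nt5e in 18.9% of squares. They met in 1323 squares, 1.16 times the product, or 1.10 times in squares of like depth. With side 5 the ratio was 1.60, beside 1.23 for Nt5e and Enpp3 and 1.20 for Slc28a2 and Enpp3. Pairs of Ada with these 3 genes stayed at 1.06 to 1.10.

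Marker lists of 18 cell types and zones placed the genes among the tissue's compartments. In the tenth of squares richest in each list, the highest levels of Ada, Nt5e, Slc28a2 and Enpp3 were in the tip-landmark squares of both sections. The WT-labelled section did not set these squares apart from the enterocyte-rich ones, with Ada at 221 against 201 CPM, Nt5e at 19.9 against 16.4, Slc28a2 at 117 against 111 and Enpp3 at 25.6 against 24.4 CPM. Its bottom-landmark squares were high too, with log2 ratios over all other squares of 2.53 for Slc28a2 and 2.71 for Enpp3, each above 0 in 1 of 4 parts, and Enpp3 in tip-landmark squares was above 0 in 2 of 4 parts. In the KO-labelled section the squares richest in general epithelial markers were high too. They held 4050 against 4748 CPM of Ada in the tip-landmark squares, 68.7 against 73.0 of Nt5e, 1108 against 1255 of Slc28a2 and 1332 against 1784 of Enpp3. Goblet-rich squares held 3165 CPM of Ada and 793 of Slc28a2. Slc28a2 ranged from 1255 CPM in the tip-landmark squares of this section to 112 CPM in the smooth-muscle-rich squares, an 11.2-fold range. Those smooth-muscle-rich squares still held 18860 CPM of the enterocyte list, so a square mixes cells or their RNA. Slc28a1 varied least, 1.403-fold over the 18 lists in the KO-labelled section and 1.77-fold in the other. In the WT-labelled section Xdh, known also from endothelium and other tissues, was highest in the smooth-muscle-rich squares (77.6 CPM) and lowest in the Paneth-rich ones (34.4 CPM). The KO-labelled section differed, with Xdh and Pnp highest in the tip-landmark squares (393 and 249 CPM). Both were lowest there in the smooth-muscle-rich squares (98.2 and 114 CPM).

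**Figure D5:**
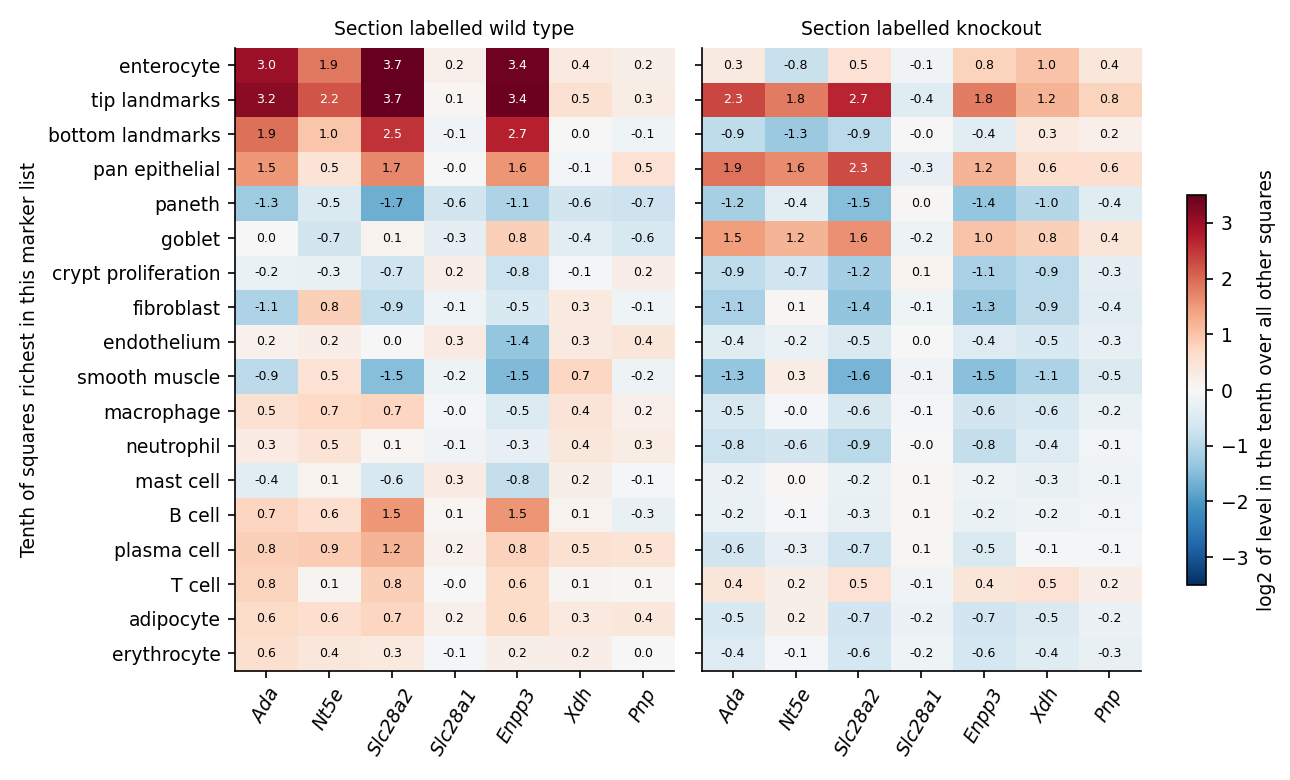
Log2 of the level of each gene in the tenth of squares richest in a marker list over all other squares, for 18 lists (rows) and 7 genes (columns), in the WT-labelled section (left) and the KO-labelled section (right). The tip-landmark row is red for Ada, Nt5e, Slc28a2 and Enpp3 in both panels, and the Slc28a1 column stays pale.

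Across 971 squares of side 30 of the KO-labelled section, Pearson's r of log2(CPM + 10) described which genes run alike; squares share the library and neighbouring tissue. Ada and Slc28a2 had r = 0.91, Ada and Enpp3 0.85, and Slc28a2 and Enpp3 0.83. Beyond the 7, Ada was most like Clca4a (0.93), Serpinb1a (0.87) and Krt20 (0.83), and Slc28a2 like Clca4a (0.91), Serpinb1a (0.85) and Sprr2a1 (0.82). Enpp3 was most like Apob (0.92), the structural protein of chylomicrons, then Krt20 (0.89) and H2-K1 (0.88). Xdh was most like the apolipoprotein genes Apoa4 (0.76) and Apoc2 (0.75) and the cytochrome P450 gene Cyp3a13 (0.73). Pnp had lower values, led by Krt20 (0.55), Serpinb1a (0.55) and Apoa4 (0.54), as had Nt5e, led by Clca4a (0.44). Nt5e had only 2391 counts over these squares or outside them, so counting error weighs on its values. Over 92 squares of side 100, r was 0.79 for Pnp and Krt20 and 0.80 for Pnp and Serpinb1a. There Nt5e had 0.63 with Clca4a and 0.70 with Cldn4, and Ada 0.94 with Clca4a. Slc28a1 was most like Bsg (0.47), Ckb (0.45) and Nkain2 (0.43), and its r with the other 6 genes lay between -0.24 and -0.12.

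Other genes of purine and pyrimidine metabolism did not share one direction. Their counts stand beside the same shares of all genes, 15.7% at least 2-fold higher and 19.7% at least 2-fold lower, and with 4 to 16 genes a list a difference of a few genes from these shares is not read as a result. Of 16 measured genes of extracellular nucleotide breakdown, 5 were at least 2-fold higher in the KO-labelled section and 4 at least 2-fold lower, with a median log2 ratio of 0.05. The intestinal alkaline phosphatase gene Alpi (163 and 47184 counts, 7.005) and the ectonucleotidase gene Entpd8 (4.35) were the highest, and the tissue-nonspecific alkaline phosphatase gene Alpl the lowest (1453 and 98 counts, -5.06). Alpi is also one of the enterocyte markers. Nucleoside carriers and receptors had a median of -0.45 over 14 genes, led by Slc28a3 (2.56) and the adenosine receptor gene Adora2b (2.40), with the equilibrative carrier gene Slc29a2 lowest (-2.44).

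Among genes of metabolism inside the cell, Gda, which deaminates guanine to xanthine, stood at 98.1 and 1535 CPM (log2 ratio 3.97, 3.92 to 4.01), while 6 of 16 genes of intracellular breakdown were at least 2-fold lower and the list's median was -0.53. All 12 measured genes of de novo purine synthesis were lower in the KO-labelled section, 9 of them at least 2-fold. Their median log2 ratio was -1.24, against -0.18 over all genes. Ppat, which catalyses the committed step of that pathway, had 43.1 and 9.74 CPM (-2.15), and Adss was nearly level (-0.03). A list of 9 proliferation markers was lower too, 875 against 426 CPM in sum, and its part in the synthesis genes was not tested. Salvage genes had a median of 0.18 over 11 genes, with Aprt at 275 and 249.9 CPM. Of 4 measured urate carriers 3 were at least 2-fold higher, Slc17a4 (3.83), Abcg2 (2.65) and Slc2a9 (2.40), and Abcc4 was lower (-2.05). Of 10 pyrimidine nucleoside genes 5 were at least 2-fold higher, led by Cda (4.48), Upp1 (3.24) and Dpyd (3.21). Hprt, Prps1 and Prps2 lie on chromosome X, whose 2041 genes all hold 0 counts in both sections, so they have no value here.

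Genes of these lists that were high in the KO-labelled section were not all higher toward the tip. In that section's tip-rich over bottom-rich squares, Alpi had a log2 ratio of 0.997 (just under 2-fold), Gda 0.55, Entpd8 0.69 and Cda 0.02, and Slc28a3 was lower at the tip (-1.68). Against 2.44% of all genes at least 2-fold higher and 4.51% at least 2-fold lower at the tip, 1 of 10 measured carriers and receptors was higher by that much, P2ry2 (1.15), named after its value was seen. Of the same 10, 9 were lower at the tip. The median log2 ratio over all genes was -0.26 there, so most genes were lower too. Of the 9, 3 were at least 2-fold lower, 1 of these on 15 against 6 counts (interval -2.95 to 0.16). None passed that fold in either direction in the other 6 lists, which had 13, 12, 11, 10, 4 and 8 measured genes.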

How the data were processed

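The deposited matrices hold whole-number counts for each gene at each barcode, with no normalization. Barcodes under tissue were kept by the authors, per the labels' protocols, and the genome build was GRCm38, per the submitters' processing notes. The labels name BSTMatrix and BSTViewer for joining spot and tissue images. No aligner, and no statement on molecular identifiers, is given in the sources used here. Features sharing a symbol were added. Counts were summed per section, per 4 parts by position, or per square, and expressed as CPM. CPM carry exact Poisson intervals and ratios exact conditional binomial (Clopper-Pearson) intervals at 95%. They cover counting error only. Squares of 1 section are not replicates, and no test was run. Calls use genes with 200 or more counts, lists genes with 20 or more. The code of the ratio step was checked on simulated Poisson counts. These leave out differences between parts of a section, so the check says nothing about them. Python 3.11.15, numpy 2.4.6, scipy 1.17.1 and pandas 2.3.3 were used. Members and gene lists were chosen with earlier results of these data known. Named genes are the 7, their close copies, Krt20, the landmarks, Dpf2, the 3 highest, 3 lowest and 2 most counted of each list (50 or more counts), and the 3 most alike to each member. The 5 groups by Krt20, the distances, the wild-type values without part 4, the tip background over all genes and the scaling to Krt20 were chosen after seeing the data. Promoter windows are RefSeq's. No column of another series was present.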

Additional observations from a re-analysis of the deposited data

How the results depend on the processing

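No paired analysis was possible because each genotype has 1 section. Scaling to the enterocyte list in place of all counts left 1 gene at least 2-fold higher and turned the summed log2 ratio to -2.59, and those of Ada (-0.83), Nt5e (-3.65), Slc28a2 (-1.77), Slc28a1 (-4.49), Xdh (-3.92) and Pnp (-4.68). That scaling shifts every ratio down by 5.90, and took the list medians to -5.85 (extracellular breakdown), -6.35 (carriers and receptors), -6.42 (intracellular breakdown), -5.72 (salvage), -7.14 (de novo synthesis), -3.38 (urate carriers) and -4.43 (pyrimidine nucleosides). Scaling to Krt20 turned Nt5e (-1.48), Slc28a1 (-2.31), Xdh (-1.74) and Pnp (-2.51). The summed ratio was 3.49 with median-of-ratios factors, 3.08 with the Paneth list and Defa genes left out of the total, 3.01 scaled to the pan-epithelial list, 2.65 without Ada, and 3.20 to 3.45 with 1 part of a section left out (3.28, 3.26, 3.27 and 3.45 without parts 1 to 4 of the WT-labelled section, 3.38, 3.40, 3.25 and 3.20 without those of the other). The summed tip over bottom ratio of the KO-labelled section, 2.33, was 2.25 and 2.30 with squares of side 5 and 20, 2.26 with Krt20 as the only tip landmark, 2.30 with squares of 3000 or more counts, 2.09 per enterocyte count and 1.83 with 3 groups. The summed ratio by Krt20 was 0.55 and 0.20 in the WT-labelled section at sides 5 and 20 and -0.97 per enterocyte count, and 0.67 at side 20 and 0.022 per enterocyte count in the other. Nt5e by Krt20 turned at side 20 (-0.031) and per enterocyte count (-0.72) in the WT-labelled section, as did Pnp (-1.15) there and Xdh (-0.34) in the other section per enterocyte count. Nt5e and Enpp3 in the WT-labelled section rest on 223 and 171 counts, which limits their maps.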

Other observations

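The Slc28a2 copy listed as Gm14085 was lower in the KO-labelled section as a whole, yet within that section it was higher in tip-rich than in bottom-rich squares, 10.6 against 1.89 CPM, a log2 ratio of 2.49 (1.76 to 3.30). Its level there is low beside that of Slc28a2, and reads of the copies may be split. Pnp2 had a tip over bottom log2 ratio of 0.75 (0.66 to 0.84) in the same section, beside 0.70 for Pnp.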
